A study of Mus musculus with 4 samples.

Results

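The Tceal and Bex gene cluster is a stretch of mouse chromosome X that carries mostly short genes of 2 related families. Here it was followed through 8 of its genes, namely Tceal1, Tceal3, Tceal5, Tceal6, Tceal8, Bex1, Bex2 and Bex4, out of 46320 gene identifiers in the expression tables. They were matched by symbol in each table, and all 8 were found. The genes had been selected on allele counts seen in these same tables, where Tceal5 carried reads of both alleles, together with its named relatives. Their allele counts are therefore given as a description, and a call on them from the fit over all genes supports nothing here.

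Prefrontal cortex of female mice aged 14 weeks was assayed by RNA-seq (2 libraries) and by MethylC-seq (2 libraries), in which bisulfite treatment marks unmethylated cytosines. The animals were a cross of C57BL6J and Spretus, and every one carried mutated Xist on the maternal X chromosome, so the study holds no animals with intact Xist. Xist RNA coats and silences the chromosome X that makes it. Frontal tissue of 2 individuals from separate litters was pooled, and the labels do not say whether the 2 libraries of an assay are separate pools, so their spread may be technical. Each comparison is between the C57 and the Spretus copy of a gene within the same RNA.

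Tceal genes encode small nuclear proteins related to TFIIS, the elongation factor made from the Tcea genes, which helps stalled RNA polymerase to resume. Bex genes encode small proteins first known from brain, and Bex1 and Bex3 are known to bind the p75 neurotrophin receptor. Both families are known for strong expression in neurons, and as X-linked genes they are normally read in a female cell from the active X chromosome. Genes that are read from the silenced one as well are called escape genes.

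Xist, the targeted gene, had 31 C57 and 2158 Spretus reads in library 1, and 9 and 795 in library 2. Which strain was the mother is read here from the order of the strain label and from these same Xist reads, so they are no independent check of the genotype. Read so, Spretus is the paternal X chromosome, the one with intact Xist. Library 1 held 4768237 allele-assigned reads and library 2 held 1291903. Autosomal reads were 47.9% and 48.0% Spretus. Cortical markers were present: the neuron list (Rbfox3, Snap25, Syt1, Map2) had a median of 455 FPKM in library 1 and 107 in library 2. FPKM is a level for both alleles together, normalised to transcript length and library size. The choroid plexus list stood at 0.387 and 0.232, the cerebellum list at 5.86 and 0.548, and the blood list at 290.8 and 20.5.

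The promoters of the cluster were taken from RefSeq (GRCm38.p6, the mm10 build). They show which promoters are near copies and which of them a listed methylation region reaches. All 8 genes matched, with 12 annotated starts. The window before the first Tceal5 start, chrX:136203885-136204134 on the minus strand, is shown first because a listed methylation region reaches into it. Capitals mark the 57 bases of that region inside the window.
Tceal5: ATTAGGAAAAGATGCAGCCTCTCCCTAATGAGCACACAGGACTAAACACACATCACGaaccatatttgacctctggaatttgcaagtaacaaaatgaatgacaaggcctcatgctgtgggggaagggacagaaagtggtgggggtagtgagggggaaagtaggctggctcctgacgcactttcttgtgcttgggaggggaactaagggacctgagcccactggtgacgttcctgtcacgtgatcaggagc

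The windows before the starts of Bex1 (chrX:136215514-136215763, minus strand) and Bex4 (chrX:136138746-136138995, plus strand) are shown because they are nearly the same sequence, 73.5 kb apart and on opposite strands. Capitals mark a run of 221 identical bases.
Bex1: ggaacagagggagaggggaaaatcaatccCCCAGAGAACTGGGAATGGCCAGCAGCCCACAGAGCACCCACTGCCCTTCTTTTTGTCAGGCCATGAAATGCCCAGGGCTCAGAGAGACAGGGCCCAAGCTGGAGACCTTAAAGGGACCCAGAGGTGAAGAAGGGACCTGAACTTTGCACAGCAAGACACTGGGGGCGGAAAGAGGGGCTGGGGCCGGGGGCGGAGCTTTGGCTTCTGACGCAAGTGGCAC
Bex4: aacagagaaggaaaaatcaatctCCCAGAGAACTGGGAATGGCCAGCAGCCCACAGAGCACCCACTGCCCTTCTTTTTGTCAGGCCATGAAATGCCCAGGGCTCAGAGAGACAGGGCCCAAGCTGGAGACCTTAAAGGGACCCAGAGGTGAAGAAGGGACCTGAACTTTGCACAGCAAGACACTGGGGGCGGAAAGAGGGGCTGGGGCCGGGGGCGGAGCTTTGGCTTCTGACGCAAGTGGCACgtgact

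Bex1 and Bex4 matched at 238 of 244 aligned bases without gaps (97.5%). Bex2 and the neighbouring Bex3, listed under its older symbol Ngfrap1 in the tables, shared a run of 145 bases and matched at 81.7% of 213. Every other pair of these genes, Tceal7 and Tceal9 included, shared a run of at most 12 bases. The transcripts themselves were not compared here, so promoters that differ do not show that transcripts differ. Reads that fall in transcript sequence shared by near copies could be counted for either gene. Counts of Bex1 against Bex4 and of Bex2 against Ngfrap1 may be uncertain in this way, to an extent not measured here. Counts of Tceal3, Tceal5 and Tceal6 may be uncertain in the same way. Whether shared transcript sequence affects the allele counts of Tceal5 was not tested.

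Tceal3, Tceal5 and Tceal6 shared a short element, shown because these are the relatives set side by side in the allele counts. The stretches lie at chrX:136666367-136666394 (plus strand), chrX:136203883-136203910 (minus strand) and chrX:135210685-135210712 (minus strand). Capitals mark TCACGTGA, which reads the same on both strands and holds CACGTG, the core bound by E-box factors.
Tceal3: gacgcggtgtTCACGTGAccggccaggc
Tceal5: gacgttcctgTCACGTGAtcaggagcag
Tceal6: gacgctttgcTCACGTGActggcttggt

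Tceal7 holds TCACGTGA as well, without the GACG before it. The shorter CACGTG also stood at Bex4, beginning 9 bases before its start. It was found in 6.02% of all promoters and 7.11% of those on X. TCACGTGA stood in the 250 bases before a start in 0.785% of 32851 RefSeq promoters and 1.23% of those on X. GACG, 6 bases and then TCACGTGA, searched on both strands, stood in 8 windows of 7 genes, which were Tceal3, Tceal5, Tceal6, the nearby Armcx6, and Ubap2, Vps33a and Zmym6. The element was noticed in the printed sequences before it was counted. Its position differed: CACGTG begins 15 bases before a start of Tceal5 and 14 before that of Tceal6. At Tceal3 it begins 233 bases before the third start, and the printed stretch spans the second start. TGACG, known from cAMP response elements, was found on either strand in all 8 genes and in 17.8% of all promoters. It overlaps the GACG of the longer element in all 3 genes.

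Tceal5 had reads of both alleles, and the other genes of the cluster had C57 reads almost alone. In library 1, 92 reads of Tceal5 carried C57 and 37 carried Spretus sequence, a Spretus share of 28.7% (exact Clopper-Pearson 95% interval 21.1 to 37.3%). Library 2 gave 45 and 15, a share of 25.0% (14.7 to 37.9%). The share was 26.8% ± 2.60 (SD, n = 2). The 7 other genes together had 2 Spretus reads among 961, or 0.208% (0.0252 to 0.750%). These intervals cover counting error only and treat each read as independent. Reads without molecular identifiers are not independent molecules, so the intervals may be too narrow. The last interval also pools reads over the 7 genes and 2 libraries and leaves out the spread between them.

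Tceal3 and Tceal6 each had a single Spretus read. Tceal3, the highest of the Tceal genes in total level, had its read in library 1, beside 110 C57 reads, and showed 49 C57 reads alone in library 2. Tceal6 showed 151 C57 reads alone in library 1, with 72 C57 reads and 1 Spretus read in library 2. With 1 Spretus read, the exact interval reached 4.92% for Tceal3 in library 1 and 7.40% for Tceal6 in library 2. In the library without one, 0 reads permit up to 6.12% for Tceal3 and 1.99% for Tceal6.

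Tceal8 and Tceal1 had no Spretus read. Tceal8 had 94 C57 reads in library 1 and 34 in library 2, where 0 Spretus reads still permit up to 3.19% and 8.82%. Tceal1, an early described member that modulates transcription from some promoters, had 78 and 35, which allows up to 3.85% and 8.57%.

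The Bex genes also showed C57 reads alone, at unequal depth. Bex2 had 184 in library 1 and 77 in library 2, which allows a Spretus share of up to 1.63% and 3.90%. Bex1 had 37 and 12, which allows up to 8.11% and 25.0%. Bex4 had 21 and 5, which allows up to 14.3% and 60.0%. In library 2 these limits for Bex1 and Bex4 are as high as the 25.0% of Tceal5 or higher. Bex1 and Bex4 fell below the minimum of 20 reads in each library set for shares, with 12 and 5 reads in library 2. Tceal8, just inside it, had 34.

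**Figure D1:**
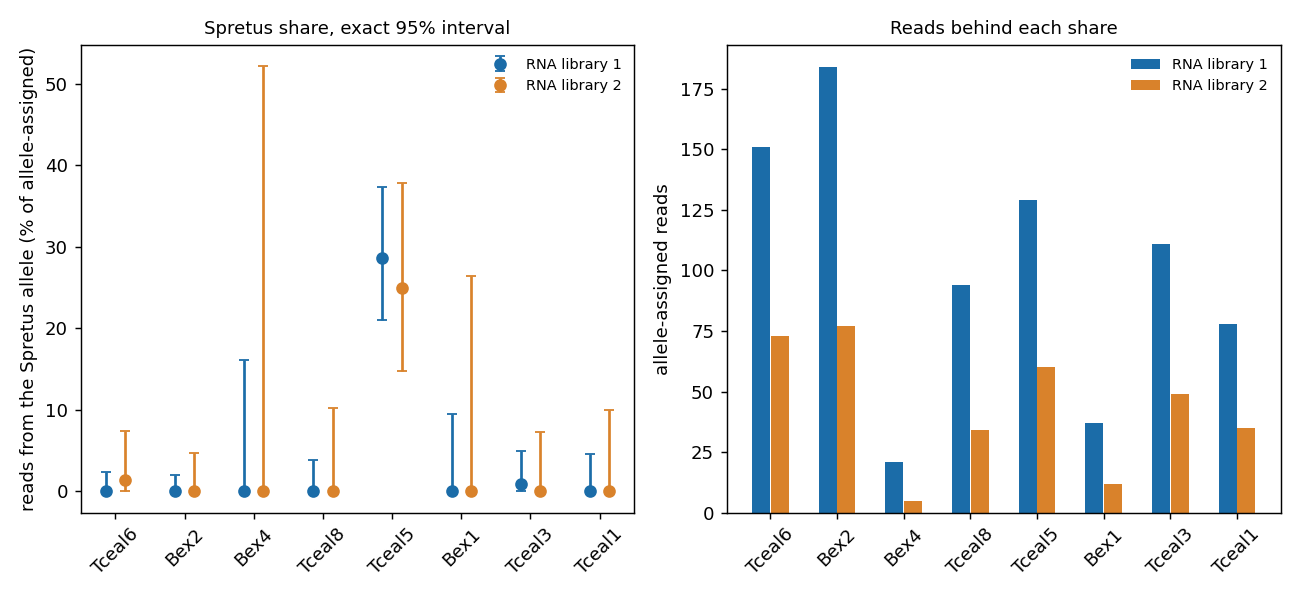
Left, Spretus share of allele-assigned reads (percent) for the 8 genes in chromosome order, one point per RNA library with its exact 95% interval. Right, the allele-assigned reads behind each share. Tceal5 stands at 28.7% and 25.0%, and the wide intervals of Bex1 and Bex4 belong to 12 and 5 reads in library 2.

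In the edgeR fit, which took every gene reaching 10 allele-assigned reads in both libraries, the 7 genes with enough reads were all called toward C57, and Bex4 did not enter. Of all X-linked genes tested, 99.2% were called toward C57, and the genes were chosen on this contrast, so nothing is read from the count. The fitted log2 ratio of Spretus over C57 was -1.36 (SE 0.37) for Tceal5. For genes with 0 or 1 Spretus reads the fitted ratio depends on the prior count and is not given. DESeq2 called 6 of the 7 toward C57, with Tceal5 not among them, where it called 98.7% of X-linked genes.

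Among X-linked genes outside the cluster, few had a Spretus share like that of Tceal5. Of 310 such genes with at least 20 reads in each library, 156 had no Spretus read and the median share was 0%. A mean share at or above that of Tceal5 was found for Ddx3x, Eif2s3x and Xist. The shares nearest to Tceal5 over the 2 libraries, by straight-line distance in percentage points, were those of the histone demethylase genes Kdm5c (distance 2.72) and Kdm6a (5.10). The RNA helicase gene Ddx3x (5.75), the noncoding 5530601H04Rik (7.01) and the receptor gene Gpr34 (18.1) followed. Kdm5c stood at 26.5% and 26.7% and 5530601H04Rik at 22.7% and 21.3%. These 2 genes, Kdm6a and Ddx3x all lay within the interval of Tceal5 in each library. Gpr34 stood at 10.8% and 28.0%, so its libraries lay further apart. With 60 reads of Tceal5 in library 2, its order among Kdm5c, Kdm6a, Ddx3x and 5530601H04Rik is not resolved at this depth.

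**Figure D2:**
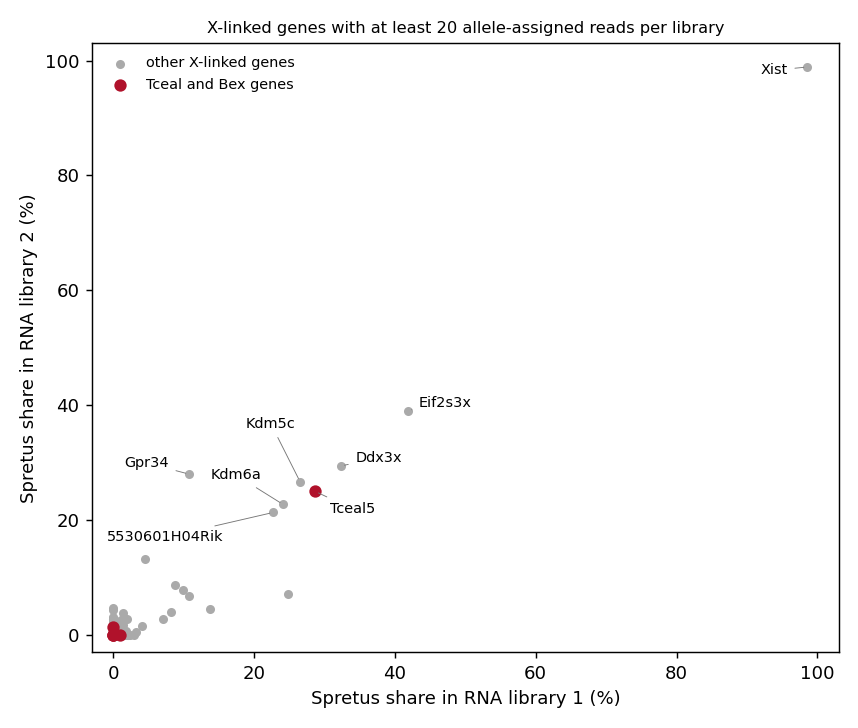
Spretus share (percent) in RNA library 1 on the horizontal and library 2 on the vertical axis for X-linked genes reaching 20 allele-assigned reads in both. Red points are the 6 Tceal and Bex genes with enough reads, of which 5 lie near 0 and Tceal5 lies at 28.7% and 25.0%, beside Kdm5c, Kdm6a and Ddx3x.

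Tceal5 stood alone along the stretch. Its locus, X 136200948 to 136203876 (ENSMUSG00000054034.9), lies 28.6 kb from Tceal8 on one side and 10.1 kb from Bex1 on the other, neither with a Spretus read. No other listed gene overlaps it. The 8 genes span 1.50 Mb, and 8 further genes within that span had at least 10 reads in each library. Together those had 12 Spretus reads among 4151, a share of 0.289%.

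Gprasp1, which encodes a sorting protein of G protein-coupled receptors, had 7 Spretus reads among 2317, and its relative Gprasp2 had 2 among 660. The armadillo repeat gene Armcx5, which shares its listed start with Gprasp1, had none among 304, Bhlhb9 none among 254, Arxes2 none among 111 and Arxes1 none among 56. Wbp5, the older symbol of Tceal9, had 1 among 170, and Ngfrap1 had 2 among 279. None of these 8 genes came near the share of Tceal5.

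**Figure D3:**
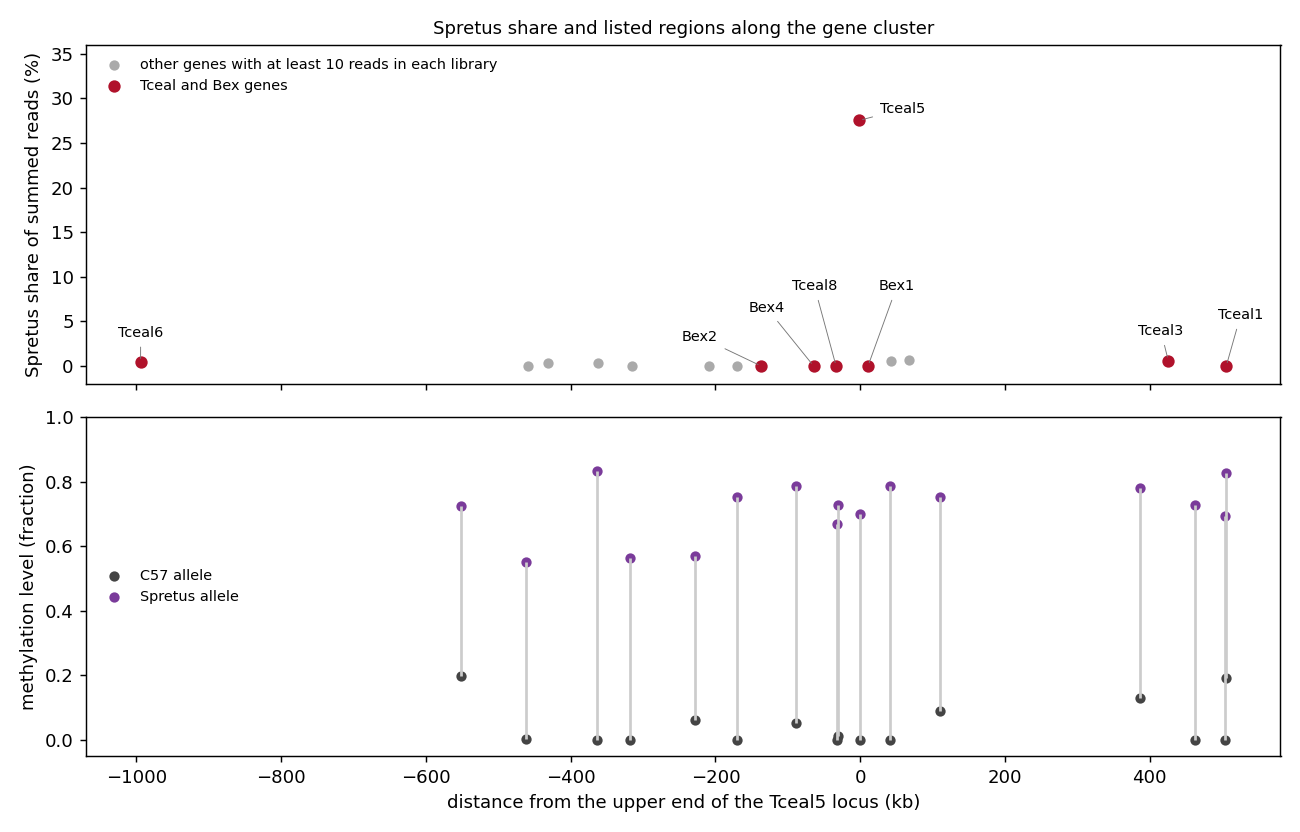
Top, Spretus share of summed reads (percent) of the 8 genes (red) and of 8 other genes with at least 10 reads in each library (grey), by distance from the upper end of the Tceal5 locus (kb). Bottom, the authors' methylation level of each listed region on the C57 (black) and Spretus (purple) allele, where all 16 regions are higher on Spretus, including the one beside Tceal5.

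Wider relatives and neighbours followed the same pattern. The list held 31 names, of which 29 were in the tables, and 17 X-linked and 2 autosomal genes had enough reads. The 17 include the 8 genes within the span described above, so the sets are not separate. All 17 X-linked genes were called toward C57 in edgeR's test, against the 99.2% above. Of these, 15 had a Spretus share of summed reads of at most 0.717%. Zmat1, a zinc finger gene, stood higher, at 6.59% (2.46 to 13.8%). It had 4 Spretus reads among 78 in library 1 and 2 among 13 in library 2.

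Tceal7 had 7 reads in library 1 and 3 in library 2, all C57, too few for a share. The listed locus of Tceal7 overlaps that of Bex1 by 735 bp, and no source used here says whether counting used strand, so their reads cannot be told apart there. Bex6, an autosomal relative, was listed at 0 in each library.

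Tcea1 and Tcea2, autosomal genes of the elongation factor that gives the Tceal family its name, drew on both alleles. Tcea1 was 43.6% ± 2.47 Spretus and Tcea2 55.2% ± 0.0780 (SD, n = 2). By edgeR's quasi-likelihood test, Benjamini-Hochberg adjusted, neither was called (log2 ratio -0.22, adjusted p = 0.687, and 0.42, adjusted p = 0.395), where 5.43% of autosomal genes were. With the library as a replicate block, edgeR called Tcea2 toward Spretus (log2 ratio 0.43, Benjamini-Hochberg adjusted p = 0.0366), in a fit that called 22.5% of autosomal genes.

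Methylation was higher on Spretus at every listed region near the cluster, as it was at 519 of the 594 listed regions of chromosome X. The deposited list holds regions that differ between the alleles, with a level from 0 to 1 per allele and no depth. Its columns name no library, so the levels are taken here to hold the 2 libraries together. Within 2 kb of the 8 genes lay 7 regions, at Tceal1, Tceal3, Tceal5 and Tceal8. Of all X-linked genes tested for allele counts, 67.8% had a region within 2 kb, so 4 of 8 is no sign of a surplus. For sequence that the list does not cover, no level was at hand.

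Beside Tceal5 lay 1 region, chrX:136204078-136204138, with a level of 0 on C57 and 0.700 on Spretus. It covers 61 bases and begins 194 bases before the first RefSeq start, away from the gene. The Spretus level stood above 250 of the 519 X-linked regions higher on Spretus, near their median of 0.706. Only 32 of those 519 were as short, against a median length of 467 bp. The 57 bases printed in capitals hold a single CG, at the edge nearest the gene, and the other 4 bases of the region lie outside the window. The TCACGTGA of Tceal5, whose CACGTG begins 15 bases before the same start, lies outside any listed region.

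The listed edges were checked against the RefSeq windows: 63 region starts and 55 region ends fell inside one, and all of them stood on a base of a CG when counted from 1. Region coordinates are therefore read as counted from 1, with both ends included.

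Tceal3, with 1 Spretus read, had the longest regions. The region at chrX:136590414-136590986 spans its first start, with 0.129 on C57 and 0.779 on Spretus. The one at chrX:136666160-136666985 spans its other starts, with 0 and 0.728, and covers the TCACGTGA of Tceal3. Those regions are 573 and 826 bp long.

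Tceal8 had regions on both sides of its start, chrX:136171535-136172014 (0 on C57, 0.669 on Spretus) and chrX:136172582-136173103 (0.0124 and 0.726). The first lies inside the gene and the other lies before the start. Tceal1 had regions inside the gene, at chrX:136708154-136708401 (0 and 0.693) and chrX:136709064-136709285 (0.192 and 0.826). The start itself lies outside both.

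Tceal6 and the Bex genes had no listed region within 2 kb, and they too had at most 1 Spretus read. The nearest region lay 172.1 kb from Tceal6, 32.4 kb from Bex2, 22.8 kb from Bex4 and 9.8 kb from Bex1, where it is the region beside Tceal5. The wider set of neighbours was divided likewise, since 12 of the 17 X-linked ones tested had a region. Zmat1 had 1, with 0.300 on C57 and 0.813 on Spretus. Of the genes nearest to Tceal5 in share, Kdm5c, 5530601H04Rik and Gpr34 had no listed region within 2 kb. Kdm6a had 1, at 0.0287 and 0.771, and Ddx3x had 2, with Spretus levels of 0.795 and 0.950.

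The 250 bases before each start held 4 to 7 CG in 11 of the 12 windows, against a median of 6 (quartiles 2 and 16) in all promoters. The exception was the third Tceal3 start, with 16. GGGCGG, the core of the Sp1 motif, was found on either strand at Bex1, Bex4, Tceal3, Tceal6 and Tceal8, and in 32.7% of all promoters. TATAAA was found at Bex2 alone, and in 12.4% of all promoters.

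In total level, counting both alleles, Bex2 led and Bex4 was lowest. FPKM values were 5.62 times higher in library 1 over 8970 genes, so library 2 was multiplied by that factor to give scaled FPKM. Bex2, known as a partner of the transcription factor Lmo2, stood at 97.7 FPKM in library 1 and 20.1 in library 2, or 105 ± 10.9 scaled FPKM (SD, n = 2). It lay above 96.4% of the other X-linked genes tested. Tceal3 stood at 35.6 and 10.1 FPKM, Tceal5 at 23.9 and 9.58, and Tceal6 at 25.2 and 5.46. Tceal8 followed at 18.9 and 4.74, Bex1 at 18.5 and 4.11, Tceal1 at 5.37 and 1.16, and Bex4 at 2.75 and 0.668.

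On scaled FPKM, Bex2 stood apart from Tceal3, Bex1 from Tceal1 and Tceal1 from Bex4. From Tceal3 through Tceal5, Tceal6 and Tceal8 to Bex1, each gene did not differ from the next beyond their spread. Genes further apart in that order could differ. The range of Tceal3 over the libraries, 35.6 to 56.7, lay above those of Tceal6, Tceal8 and Bex1. Tceal5 and Tceal6 lay above Bex1, which reached 23.1, while Tceal5 and Tceal8 overlapped. Tceal5 had the widest spread, 38.8 ± 21.2 scaled FPKM, and Tceal3 stood at 46.1 ± 14.9. Tceal5 and Tceal6 changed places between the libraries. On FPKM as deposited, the difference in scale between the libraries makes every pair of neighbours overlap.

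**Figure D4:**
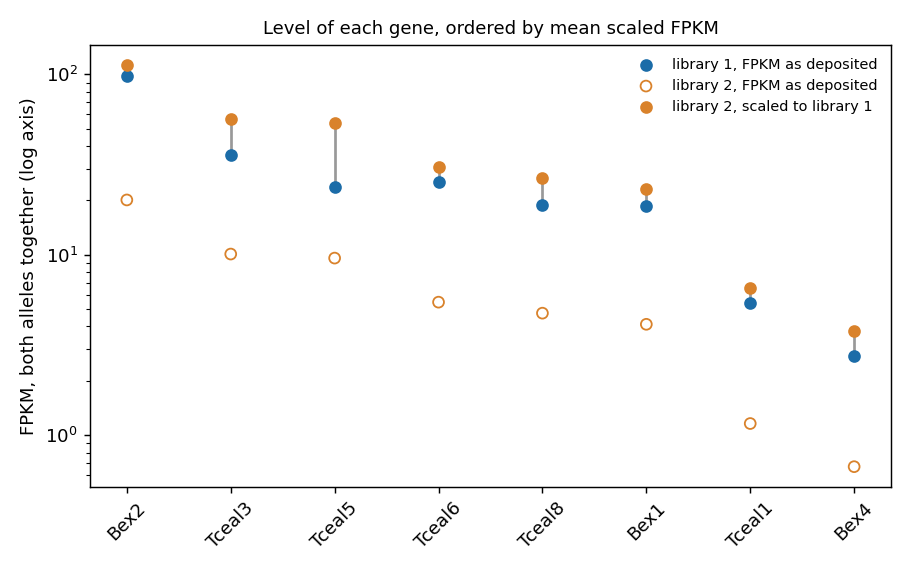
FPKM of each gene, both alleles together, on a log axis, with genes ordered by mean scaled FPKM. Blue points are library 1 and open orange points library 2 as deposited. Filled orange points are library 2 after scaling by 5.62, and grey lines join the values compared; Tceal5 has the longest line, from 23.9 to 53.8.

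All 8 genes were relatively higher in library 2. Against the overall factor, the excess was 2.26-fold for Tceal5, 1.59-fold for Tceal3, 1.41-fold for Tceal8 and 1.16- to 1.36-fold for the rest. Only 0.593% of all genes tested had a lower ratio of library 1 to library 2 than Tceal5. Among X-linked genes outside the cluster 60.0% leaned the same way, and among genes with a locus under 4 kb 43.8% did. Tceal3, whose listed locus covers 77537 bp, is longer than those. Of the 8 other genes tested within the span, 6 leaned toward library 2 by FPKM and 8 by allele-assigned reads. Allele-assigned reads come from the same libraries as the FPKM, so they are no independent check. They leaned toward library 2 for 7 of the 8 genes, against 72.8% of those X-linked genes and 55.2% of those short ones. Bex4, with 26 reads in all, did not. Relative to the factor, the neuron markers were 1.33 times higher in library 2, and the excitatory neuron markers stood at 0.813 times. Over all 10 marker lists the ratio ran from 0.395 for blood to 3.37 for choroid plexus, with cerebellum at 0.526. Their part in the difference was not tested, and with 1 library on each side the difference has no replicate check. In bulk tissue, more cells of a type and more RNA per cell cannot be told apart.

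Apart from Tceal1 in library 2, the genes yielded fewer allele-assigned reads for their level than the median X-linked gene. In library 1 there were 1.88 such reads per unit of FPKM for Bex2, 2.00 for Bex1, 3.12 for Tceal3 and 5.41 for Tceal5. Tceal1 had 14.5, and the median X-linked gene tested had 18.2. In library 2 Tceal1 had 30.2, above the median of 26.5 there, and the other genes of the cluster stood below it. The number depends on transcript length and on how many bases differ between the strains, neither of which was used here. It sets the depth of the shares above: Bex1 and Tceal8 had nearly the same FPKM in library 1, with 37 and 94 allele-assigned reads.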

How the data were processed

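Raw counts per gene for each allele and an FPKM for both alleles together are the values the authors deposited for RNA-seq, per the file headers. For MethylC-seq the deposited values are methylation levels per allele, each a fraction, in regions that differ between the alleles. Per the submitters' processing notes, the build was mm10 and the tools were HTSeq 0.6.0, TopHat2 2.0.9, bedtools 2.2.4 and Cufflinks 2.1.1, with no role given. Assignment of reads to alleles, annotation, strand setting, cytosine context and methylation depth: not given in the sources used here.

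Identifiers listed at several loci (49) were used once. Of 1613 regions, 13 without levels were dropped. Gene starts were shifted to count from 1. Shares needed 20 or more reads in both libraries. For 0 Spretus reads the limit printed is 3 reads of the total, while plotted bars are exact intervals. Allele calls came from edgeR 4.0.16 (quasi-likelihood, TMM, allele as the only term, 10 or more reads in both libraries, Benjamini-Hochberg adjusted p below 0.05 over 11981 genes), which was tested on simulated data. DESeq2 1.42.0 was an alternative. Alleles of a library share its RNA, and their deviations correlated at 0.597 over 7565 autosomal genes. Scaling of FPKM used genes with at least 1 FPKM in each library. The members and gene lists were chosen with earlier results of these data known. Besides the members, the text names the 5 nearest X-linked genes by share, tested genes within the span, family relatives, and listed genes at 2% Spretus or more, of which 1 is not reported here.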

Additional observations from a re-analysis of the deposited data

How the results depend on the processing

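The share of Tceal5 was 27.5% from summed reads, 25.0% without library 1 and 28.7% without library 2. Over all genes, edgeR called 1024 imbalanced between the alleles. It called 2999 with the library as a replicate block, which follows the pairing of alleles within a library, and 1808 without the filter on low counts, while DESeq2 called 648. The block and the missing filter changed no call of the 7 genes tested, nor did giving the alleles of a library a common total. Tceal5 alone lost its call toward C57 in DESeq2, at a log2 ratio of -1.39, and the cause was not tested. Leaving out a library leaves no residual degrees of freedom, so no calls could be made. On FPKM as deposited, 0 of the neighbouring pairs in the order of levels stood apart, against 3 on scaled values. That follows from the difference in scale between the libraries. The number of genes with a region was 3 for overlap alone, 5 within 10 kb, and 4 when a level difference of at least 0.5 was asked for. With a minimum of 10 reads, 4 X-linked genes outside the cluster reached the share of Tceal5, and with 50 reads 3 did. Depth limits Bex1 and Bex4 most.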
